A study of Arabidopsis thaliana with 2 samples.

Results

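NAC transcription factors are a large plant family that binds DNA through a shared amino-terminal domain, first described in petunia No Apical Meristem and in Arabidopsis ATAF1 and CUC2. Members separate organs at the shoot apex, switch on senescence, answer drought and pathogens, or direct the last steps of xylem and phloem cells. Some are tethered to membranes and reach the nucleus when released, and the transcripts of others are cut under the guidance of microRNA164. The members were the array genes described as no apical meristem or as NAM family, apart from NST1, NST2, NST3, VND6 and VND7, which switch on secondary walls. The description matched 100 of the 25665 loci on the array, and leaving out those 5 gave 95 NAC genes, with 1 probe each. The vessel genes VND1 to VND5 and the fibre genes SND2 and SND3 therefore remained in the set. Their descriptions called 86 members NAM family proteins and 6 NAM protein-related, and used other wording for 3, 1 of them with only weak similarity to the petunia protein (AT1G02210).

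The samples were inflorescence stems of Arabidopsis thaliana wild type, WT(Col), and of sgr1, a line with impaired shoot gravitropism that carries a lesion in SCARECROW (SCR), needed to form the endodermis. The labels name no allele. Seeds of both genotypes had 3 days of cold, seedlings stayed on plates for 10 days, and plants were kept in continuous light at 23 °C until the main stem measured 5 to 8 cm. RNA came from pools of at least 10 plants, from the 1.5 cm of stem that lay 0.3 to 1.8 cm below the apex and was stripped of lateral organs. Total RNA from sgr1 and from wild type was hybridised together on each of 2 two-colour Agilent arrays, with sgr1 in Cy3 on array 1 and in Cy5 on array 2. The arrays carry different replicate numbers in their titles, but the sample descriptions count 1 biological replicate and the labelling note has each RNA labelled with both dyes. The p-values therefore measure the spread between these arrays, which may be technical.

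Each value is the log2 of sgr1 divided by wild type, given per array and as mean ± SD (n = 2). Adjusted p-values are those of limma after Benjamini-Hochberg correction across the 19059 genes tested, with a threshold of 0.05. Between 59.2% and 66.5% of the spots were well above background in each channel. The 2 arrays limit the precision, and the 95% interval of a NAC gene's mean reached between 0.279 and 0.294 to either side. These widths are nearly alike because the fit drew each gene's spread mostly from all genes tested. It used 47.7 prior degrees of freedom against 1 residual degree of freedom per gene. SCR, the gene named by the mutant, was lower in sgr1 on both arrays (-0.81 and -1.16), though its probe may lie outside the lesion. All 4 genes listed as endodermis markers (SCR, SGR5, LZY1 and SHR) passed the test as lower. Their summed channel intensity was 10888 to 11088 in wild type and 5792 to 6187 in sgr1. SHR was the brightest of the 4, with log2 intensities of 12.31 and 12.35 in wild type and 11.84 and 11.75 in sgr1. The sum therefore leans on SHR, and it includes SCR, the mutated gene. Whether SHR transcripts mark the endodermis in these stems was not tested. Of the vascular markers 1 of 5 passed as higher (summed intensity 9264 to 10514 in wild type and 11306 to 12714 in sgr1), and of the epidermal markers 1 of 3 passed as higher and 1 as lower (10188 to 10874 and 13148 to 17454). The floral identity genes AG and AP3 were above background in no channel and PI in 1 channel, and SEP3 was measured (-0.04). In whole stem segments, fewer cells of a type and less RNA per cell cannot be told apart, and the part of these marker differences in the NAC values was not tested.

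Of the 95 NAC genes, 60 could be tested, or 63.2%, against 74.3% of all loci. Another 34 were dim, having no channel well above background on at least 1 array, and 30 of these were at background in both genotypes on both arrays. The probe of ANAC078 (AT5G04410), a membrane-tethered factor, carried an outlier flag and was left out, and its ratio was 0.16 ± 0.154 with the flag ignored. The tested members were themselves faint, with a median brightness at the 21.4th percentile of all genes tested.

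Of the 60 tested NAC genes, 5 rose and 2 fell in sgr1. That is 11.7% of them, against 18.9% of all genes tested, with rises in 8.33% against 9.92% and falls in 3.33% against 8.98%. Up to the 25th percentile of brightness over all genes tested 5 of 35 NAC genes passed the test, against 15.6% of all genes this faint, and among brighter genes 2 of 25 did, against 20.0%. The difference between these shares was not tested. An unadjusted limma p under 0.05 was found for 12 of the 60 tested NAC genes and for 5747 of the 19059 genes tested. Counts of unadjusted p-values in the groups below stand beside that share of all genes. NAP and ANAC090 count among the genes that passed, though each entered the test through 1 genotype only. In the other genotype they were at background on both arrays, so their p-values set a signal against background. With both channels required above background, 3 NAC genes rose and 1 fell, or 7.84% of those tested, against 18.6% of all genes. The scanner software's own log ratio gave the other order, with 5 NAC genes higher and 3 lower, or 13.3%, against 10.2% of all genes. Which share was larger therefore depended on the setting. The median of the NAC genes was -0.01, with -0.06 on array 1 and 0.04 on array 2, and that of all genes tested was 0.00 (-0.03 and 0.04). All 7 genes that passed had the same sign on both arrays, as had 36 of the 60 tested members and 67.2% of all genes tested. By a rule of size without a test, at least 1.5-fold apart in the same direction on both arrays, there were 4 NAC genes (6.67%, against 5.13% of all genes). NAP, ANAC019 and NARS2 were higher (5.0%, against 2.89%), and ANAC036 was lower (1.67%, against 2.24%). NAP met the rule with wild type at background.

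**Figure D1:**
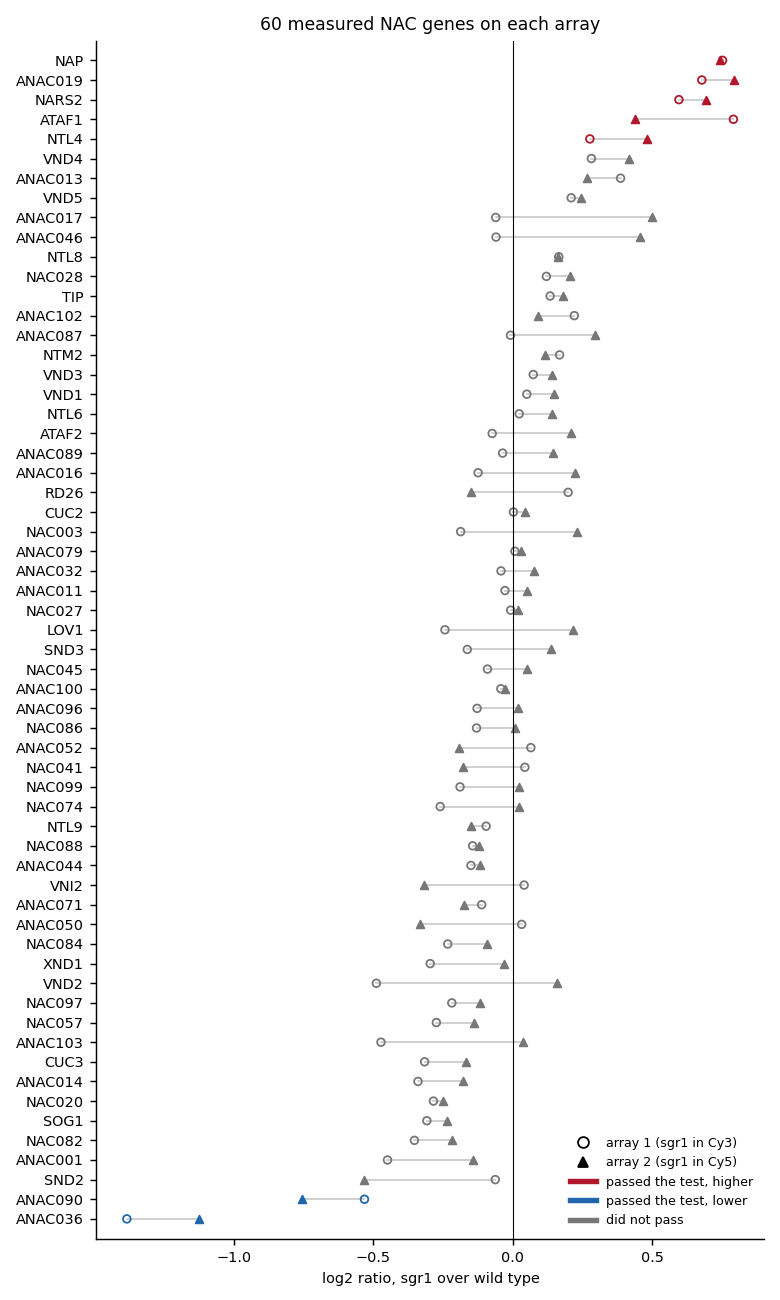
Log2 ratio of sgr1 over wild type for the 60 tested NAC genes on array 1 (circles) and array 2 (triangles), ordered by the mean, with red and blue for genes that passed the test as higher or lower. NAP, ANAC019, NARS2, ATAF1 and NTL4 stand at the top and ANAC090 and ANAC036 at the bottom, and most of the other means lie within 0.30 of zero.

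Among 15 NAC genes with roles in stress and senescence, 10 were tested, 3 rose and none fell, beside 9.92% and 8.98% of all genes. The list was made with earlier results known, so its counts are no test of the group. Its median was 0.15, with means from 0.02 to 0.75. NAP (AT1G69490), an activator of leaf senescence, had log2 channel intensities of 6.07 and 6.37 in wild type and 6.82 and 7.12 in sgr1 on arrays 1 and 2. It was above background only in sgr1, on both arrays, and its probe was at least 1.68-fold brighter there. The array ratios were 0.75 on both (0.75 ± 0.00564, adjusted p = 4.93e-05). The ratios and the p-value set the sgr1 signal against background in wild type. ANAC019 (AT1G52890), which acts in abscisic acid and jasmonate responses and in repression of salicylic acid synthesis, had intensities of 6.95 and 6.98 in wild type and 7.63 and 7.78 in sgr1. ANAC019 was 1.67-fold higher in sgr1 (0.74 ± 0.0816, adjusted p = 6.7e-05). ATAF1 (AT1G01720), which is induced by drought and abscisic acid and promotes senescence, was brighter, with 9.95 and 10.11 in wild type and 10.75 and 10.55 in sgr1. The array ratios were 0.79 and 0.44, a mean rise of 1.53-fold (0.62 ± 0.249, adjusted p = 0.000983).

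Close relatives of these genes had smaller values, though the difference between relatives was not tested. Of the ATAF subfamily, ATAF2 (AT5G08790), a regulator of defence genes, had ratios of -0.07 and 0.21, ANAC032 (AT1G77450) of -0.04 and 0.08, and ANAC102 (AT5G63790), which acts under low oxygen, of 0.22 and 0.09. RD26 (AT4G27410), the dehydration-induced relative of ANAC019, had 0.20 on array 1 and -0.15 on array 2, and its relative ANAC055 (AT3G15500) was above background in no channel. ANAC016, ANAC046 and ANAC087, which act in senescence or programmed cell death, had means of 0.05, 0.20 and 0.14. ORE1 (AT5G39610), a central activator of leaf senescence, its relative ORS1 (AT3G29035), JUB1 (AT2G43000), which delays senescence, and ANAC047 (AT3G04070) were above background in no channel.

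**Figure D2:**
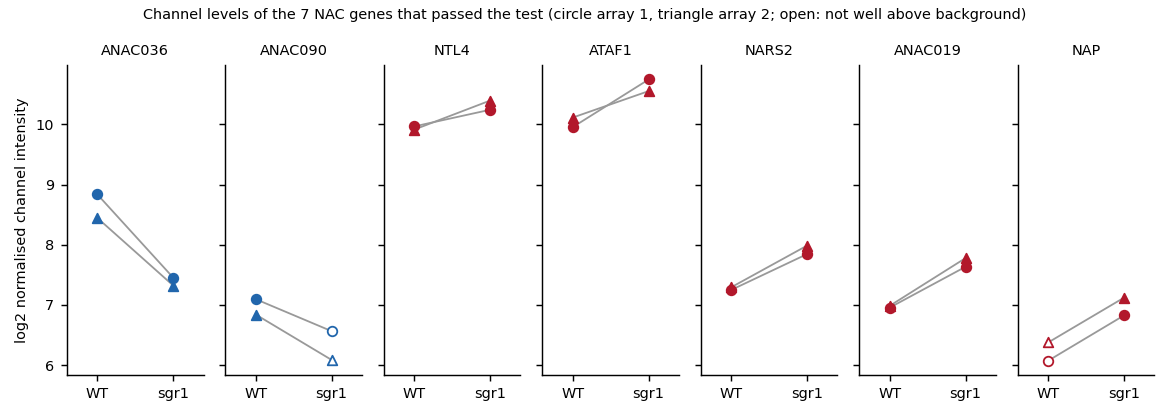
Log2 channel intensity after normalization of the 7 NAC genes that passed the test, in wild type (WT) and sgr1, with circles for array 1, triangles for array 2 and open symbols where the channel was not well above background. For each gene both arrays slope the same way, and NAP in wild type and ANAC090 in sgr1 are open on both arrays.

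Of the 3 members listed for salicylic acid, a list made with earlier results known, 2 were tested and both fell, beside 8.98% of all genes. A list so made and so small cannot test the group. ANAC019, which also acts on salicylic acid but was listed with the stress genes, rose. ANAC036 (AT2G17040), whose overexpression stunts growth, had log2 intensities of 8.84 and 8.45 in wild type and 7.45 and 7.32 in sgr1. Its ratios were -1.38 and -1.12, a 2.38-fold lower level in sgr1 (-1.25 ± 0.184, adjusted p = 6.82e-10). Its size cannot be ranked against those of NAP and ANAC090, whose folds are lower limits. By the fitted ratios ANAC036 was the one NAC gene at least 2-fold apart on both arrays, or 1.67% of the members, against 1.53% of all genes tested. ANAC090 (AT5G22380), a repressor of salicylic acid responses in ageing leaves, had intensities of 7.09 and 6.84 in wild type and 6.56 and 6.08 in sgr1. It was above background in wild type only, on both arrays, and its probe was at least 1.56-fold dimmer in sgr1 (-0.64 ± 0.158, adjusted p = 0.000512). The p-value sets the wild type signal against background in sgr1. ANAC061 (AT3G44350), a close relative of ANAC090, was above background on 1 array in wild type and in no channel of sgr1, and was not tested.

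NARS2 (AT1G52880), which acts with NARS1 in the seed coat during embryo development, rose. Its intensities were 7.25 and 7.29 in wild type and 7.84 and 7.99 in sgr1, with ratios of 0.60 and 0.69 (0.64 ± 0.0682, adjusted p = 0.000464). NARS1 (AT3G15510) was above background on 1 array in wild type only, and ANAC025 (AT1G61110) in no channel. NARS2 and ANAC019 are next to each other in the TAIR10.1 gene order, and ANAC050, ANAC052 and NTL4 form another such run. Whether neighbouring copies share a probe target was not tested, as probe sequences were not used here.

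Of 16 NAC genes listed as membrane-tethered 13 were tested, 1 rose and none fell, beside 9.92% and 8.98% of all genes. Whether each listed protein is tethered was not tested. In this group 3 had an unadjusted p under 0.05, beside 5747 of the 19059 genes tested. NTL4 (AT3G10500), which promotes reactive oxygen production under drought and is also called ANAC053, had intensities of 9.97 and 9.91 in wild type and 10.24 and 10.40 in sgr1. Its ratios were 0.28 and 0.48 (0.38 ± 0.145, adjusted p = 0.0479). The call lay at the threshold and was lost under 7 of 11 other settings. ANAC013 (AT1G32870) and ANAC017 (AT1G34190), which carry signals from stressed mitochondria, did not pass: ANAC013 had 0.39 and 0.27 (adjusted p = 0.0938), and ANAC017 -0.06 and 0.50 (adjusted p = 0.327). The 95% interval of ANAC017 ran from -0.07 to 0.51 and did not exclude a rise as large as that of NTL4. The other tested members of the group ranged from -0.30 for ANAC001 (AT1G01010) to 0.16 for NTL8 (AT2G27300), which acts in flowering and germination under salt. In between were NTL9 (-0.12), a factor of stress and immunity, NTL6 (0.08), which acts in cold and pathogen responses, TIP (0.16), bound by a turnip crinkle virus protein, and ANAC089 (0.05) and ANAC103 (-0.22), factors of the unfolded protein response. NTM2 had 0.14, ANAC014 -0.26 and ANAC016, counted with the senescence genes too, 0.05. NTM1 (AT4G01540), which restrains cell division, was above background on 1 array in wild type only, and ANAC060 in no channel.

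**Figure D3:**
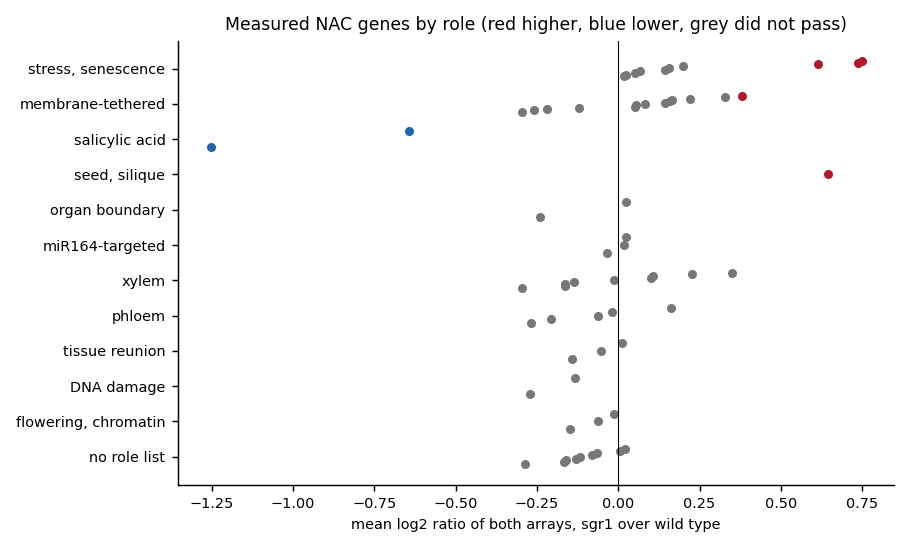
Mean log2 ratio of both arrays for the tested NAC genes, in rows by role, with red for genes that passed the test as higher, blue as lower and grey for those that did not pass. The red points lie in the stress, membrane-tethered and seed rows and the blue points in the salicylic acid row, and a gene of more than 1 role stands in each of its rows. The role lists were made with earlier results known, so the rows are no test of the roles.

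None of the 9 tested xylem factors passed the test in limma, beside 18.9% of all genes. An unadjusted p under 0.05 was found in 2 of them, beside 5747 of the 19059 genes tested. VND4 (AT1G12260) had ratios of 0.28 and 0.42 (0.35 ± 0.0952, adjusted p = 0.071), VND5 (AT1G62700) 0.21 and 0.25, VND3 (AT5G66300) 0.07 and 0.14, and VND1 (AT2G18060) 0.05 and 0.15, all of them genes of vessel formation. With the scanner software's ratio VND5 passed as higher (0.85, adjusted p = 0.016). VND2 (AT4G36160) differed between the arrays, with -0.49 and 0.16. SND2 (AT4G28500), a downstream factor of fibre walls, had -0.06 and -0.53, and SND3 (AT1G28470), another, had -0.16 and 0.14. XND1 (AT5G64530) and VNI2 (AT5G13180), which restrain xylem formation, had means of -0.16 and -0.14. Of the 5 wall switches left out of the set, NST1 passed as higher and VND6 as lower, the latter from -0.05 and -0.92 on the arrays. VND7 did not pass (-0.03), and NST2 and NST3 were above background in no channel.

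The organ boundary genes CUC2 (AT5G53950) and CUC3 (AT1G76420) did not pass the test in limma, nor had either an unadjusted p under 0.05. CUC3 had ratios of -0.32 and -0.17 and CUC2 of 0.00 and 0.05. CUC2 was above background on only 1 array in wild type, and with the scanner software's ratio it passed as higher (0.72, adjusted p = 0.0295). Of the 5 members targeted by microRNA164, 3 were tested and none passed, beside 18.9% of all genes, nor had any an unadjusted p under 0.05. Besides CUC2 these were ANAC079 (AT5G07680) at 0.02 and ANAC100 (AT5G61430) at -0.03. NAC1 (AT1G56010), which acts in lateral root growth, and ORE1 were above background in no channel.

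Of 5 phloem NAC genes none passed, beside 18.9% of all genes, and none had an unadjusted p under 0.05. NAC045 (AT3G03200) and NAC086 (AT5G17260), which direct loss of the nucleus in sieve elements, had means of -0.02 and -0.06, and NAC020 (AT1G54330), NAC057 (AT3G17730) and NAC028 (AT1G65910) had -0.27, -0.21 and 0.16. The tissue reunion factors ANAC071 (AT4G17980), which is needed for healing of cut stems, ANAC096 and ANAC011 had -0.14, -0.05 and 0.01. SOG1 (AT1G25580), the master regulator of the DNA damage response, had -0.31 and -0.24 (adjusted p = 0.181) and ANAC044 (AT3G01600), which acts below it, -0.15 and -0.12. With the scanner software's ratio ANAC044 passed as lower (-1.02, adjusted p = 0.0379). ANAC044 and ANAC011 were above background in sgr1 on array 2 only and in wild type on array 1 only. Each of their array ratios therefore set a signal against background. LOV1 (AT2G02450), a repressor of flowering, differed between arrays (-0.24 and 0.22), and ANAC050 and ANAC052, partners of a histone demethylase, had -0.15 and -0.06. In the reported fit none of these 8 genes passed the test, beside 18.9% of all genes, and none had an unadjusted p under 0.05. The root cap factors SMB (AT1G79580), BRN1 (AT1G33280), BRN2 (AT4G10350) and FEZ (AT1G26870) were above background in no channel of the stem.

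Of the 27 members with none of these roles, 9 were tested and none passed, beside 18.9% of all genes. Among the 9, 1 had an unadjusted p under 0.05, beside 5747 of the 19059 genes tested. Their means ranged from -0.29 for NAC082 (AT5G09330), a factor of nucleolar stress, to 0.02 for NAC003 (AT1G02220). NAC082 had -0.35 on array 1 and -0.22 on array 2 (adjusted p = 0.155). In 6 of the 60 tested members the SD of the arrays exceeded 0.3. These were SND2, ANAC103, VND2, LOV1, ANAC046 and ANAC017, none of which passed. The median SD of the tested members was 0.0987, against 0.132 over all genes tested. The median size of the log2 ratio, sign aside, was 0.15 in the members and 0.17 over all genes.

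Genes that act with or after NAC factors were described from lists, beside the 18.9% of all genes that passed. Of 12 tested senescence genes 3 rose and 3 fell (median 0.19). An unadjusted p under 0.05 was found in 9, beside 5747 of the 19059 genes tested. Of the 12, CV in wild type and SEN1 in sgr1 were at background on both arrays. BFN1, a nuclease, had ratios of 0.43 and 0.78 (0.60 ± 0.243, adjusted p = 0.00119), RNS3, a ribonuclease, had 0.51 and 0.27 (adjusted p = 0.0406), and CV, a protein that takes apart chloroplasts, was at least 1.51-fold higher in sgr1. SAG113, a protein phosphatase and known target of NAP in leaves, fell (-0.87 and -0.51, adjusted p = 0.000232), as did SEN1, which was at least 1.33-fold lower. WRKY53, a factor of early senescence, had -2.13 and -2.39, a 4.79-fold lower level in sgr1 (-2.26 ± 0.183, adjusted p = 2.28e-18). AAO3, an abscisic acid synthesis gene and another known target of NAP, had -0.06 and 0.28. The chlorophyll breakdown genes NYE1, NYC1 and PAO did not pass (0.27, 0.29 and 0.33), and SAG12 and SAG13, markers of late leaf senescence, were above background in no channel. NYC1 and PAO had an unadjusted p under 0.05, as had SAG101, which was below 0 (-0.36) and did not pass.

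Of 13 tested shoot boundary genes none rose and 3 fell (median -0.06). LSH4, a known target of the CUC1 protein, had ratios of -1.11 and -0.78 (-0.94 ± 0.232, adjusted p = 8.48e-07), and its relative LSH3 had -0.65 and -1.11 (-0.88 ± 0.323, adjusted p = 4.47e-06). ATH1, a homeodomain protein of stem and boundary growth, had -0.61 and -0.70 (adjusted p = 0.00036). The boundary genes LOF1 (-0.37), BOP2 (-0.29), LOB (0.11) and RAX3 (0.26), and the meristem gene STM (-0.03), did not pass. Of the 13, 6 had an unadjusted p under 0.05, beside 5747 of the 19059 genes tested. The 6 were the 3 that passed, LOF1 and BOP2 below 0, and KNAT6 above it (0.29). LOF1 lay near the threshold in limma (adjusted p = 0.0546).

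Of 10 mitochondrial stress genes, many of them known targets of ANAC013 and ANAC017, 2 rose and none fell (median -0.06). The alternative oxidase AOX1A had ratios of 1.04 and 1.74 (1.39 ± 0.491, adjusted p = 1.52e-10) and the NADH dehydrogenase NDB2 0.64 and 0.72 (adjusted p = 0.000216). UPOX and OM66, mitochondrial proteins of the same stress response, did not pass and were below 0 on both arrays, with means of -0.25 and -0.36. OM66 had an unadjusted p under 0.05. Of 24 tested proteasome subunits, which ANAC053 and ANAC078 activate under proteasome stress, 1 rose and none fell. This was PBE1, a core subunit (0.61 and 1.08, adjusted p = 9.75e-06), and the other subunits ranged from -0.23 to 0.37. The cell cycle inhibitors SMR5 and SMR7, which SOG1 activates, had means of 0.01 and 0.00 and did not pass. Of the NAC partners, SRO1 (-0.22), JMJ14 (-0.02) and DREB2A (0.19) did not pass in limma, and none had an unadjusted p under 0.05.

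**Figure D4:**
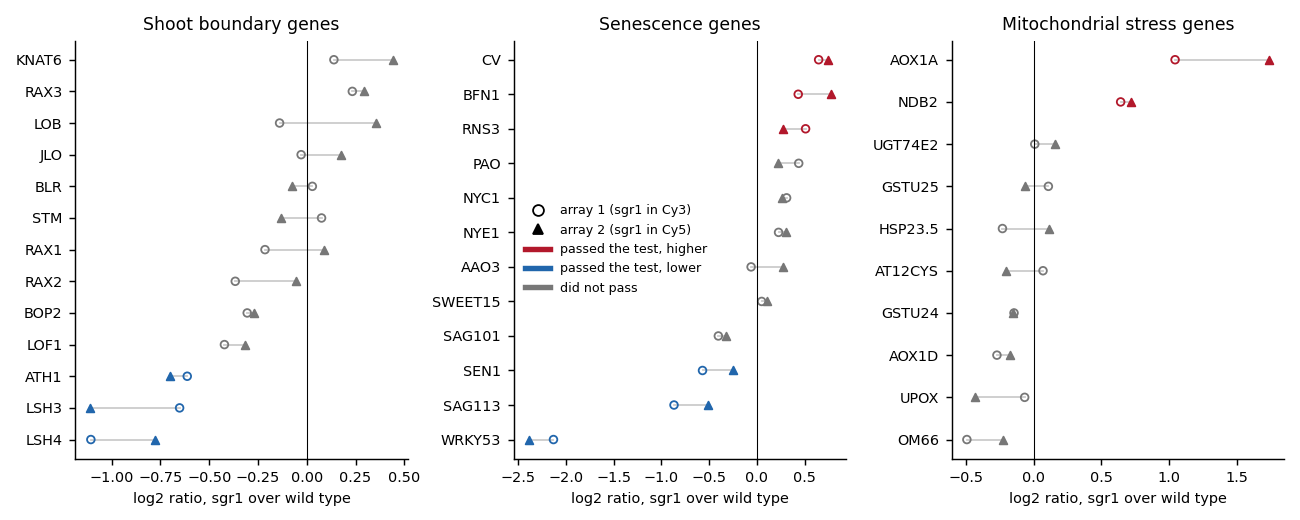
Log2 ratio of sgr1 over wild type on each array for the tested shoot boundary, senescence and mitochondrial stress genes, with symbols and colours as in the plot of all NAC genes. LSH4, LSH3 and ATH1 stand below the other boundary genes, the senescence genes split both ways, and AOX1A and NDB2 stand apart from the other mitochondrial genes.

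The calls depended on the correction for the dyes and their sizes on the treatment of background. With median centring in place of loess none of the 7 NAC genes passed, and over all genes 2 did. Their mean ratios under median centring ranged from -1.29 for ANAC036 to 0.84 for NAP and kept their signs. With ratios taken from the scanner software, 5 of the 7 passed, ATAF1 was lost at a like size (0.64, adjusted p = 0.0627) and NTL4 too (0.40, adjusted p = 0.152). Counting genes that passed under that setting only, 13.3% of the tested NAC genes passed, against 10.2% of all genes. The ratios of the faint genes were then larger, 3.56 for NAP, 1.49 for ANAC019, 1.13 for NARS2 and -2.80 for ANAC090. With a normexp offset of 16 NAP had 1.24 and ANAC090 -1.04.

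**Figure D5:**
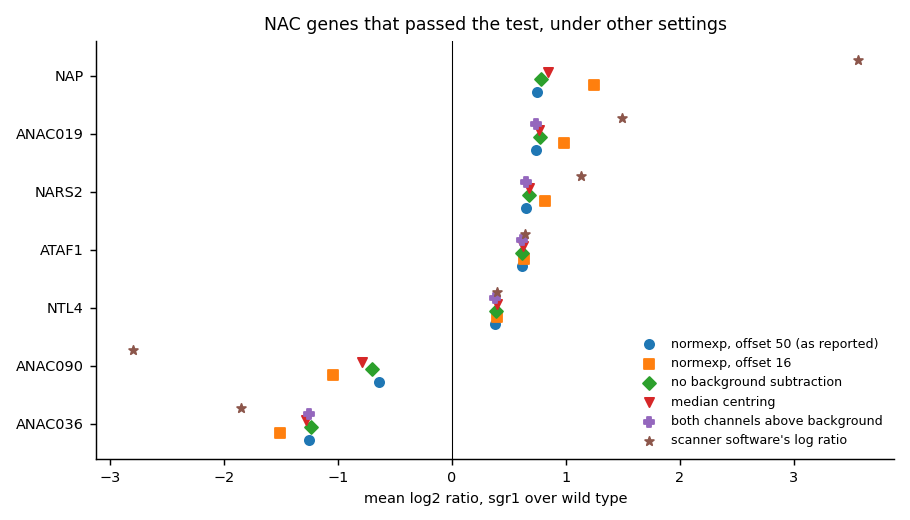
Mean log2 ratio of sgr1 over wild type for the 7 NAC genes that passed the test, under the reported setting and 5 others, each with its own symbol. The points of ATAF1 and NTL4 lie close together, those of NAP and ANAC090 reach 3.56 and -2.80 when ratios come from the scanner software, and NAP and ANAC090 have no value where both channels had to be above background.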

How the data were processed

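The deposited scanner files hold mean spot intensities and median local background intensities per channel, from Agilent Feature Extraction 9.1.3.1 per the file headers. They also hold processed intensities and a log10 ratio of Cy5 over Cy3, both corrected by that software per the file headers, and the series' deposited value table repeats this log10 ratio. The genome build behind the probes is unstated. Intensities were corrected with normexp (offset 50) and loess in limma 3.58.1 (R 4.3.3), with control and outlier spots at weight 0. Array 1's log2 ratios were sign-flipped, so that both arrays give sgr1 over wild type. Probes with at least 1 channel well above background on each array were kept and averaged per locus, and tested against 0 with lmFit and eBayes (1 residual degree of freedom, 47.7 prior degrees of freedom, two-sided). Both arrays lie on 1 slide. Channel intensities are those after loess and Aquantile. Where a genotype was above background on neither array, a fold is a lower limit against the higher of its own signal and the dimmest probe signal called well above background. The procedure was also run on simulated data with fewer changed genes, and with larger changes than those of most NAC genes that passed. That run is therefore no measure of how reliable these calls are.

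Members and lists were chosen with earlier results of these data known. Named were all members that passed, the uncalled members with the largest ratios, those of the role lists by value, the 5 loci left out, and up to 4 passing genes of each other list. Further genes of those other lists, and members outside these groups, were chosen after their values were seen. Names came from those lists or, for other loci, a TAIR10.1 table, which held all 95 members. Alternatives covered background, normalization, filter, variance model, probes and each array alone.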

Additional observations from a re-analysis of the deposited data

How the results depend on the processing

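With median centring within arrays, 0 NAC genes passed as higher and 0 as lower, 1 had a difference of 1.5-fold or more on both arrays, and 2 genes passed over all. With both channels required above background, 3 NAC genes passed as higher and 1 as lower, because NAP and ANAC090 were not tested and NTL4 missed the threshold (adjusted p = 0.0544). With the scanner software's log ratio 8 NAC genes met that rule of size, and 1952 genes passed over all. VND5 (0.85), CUC2 (0.72) and ANAC044 (-1.02) passed under that setting alone of the 11, and the cause was not tested. With each array alone 5 NAC genes were at least 1.5-fold apart, and with the arrays as 1 replicate 6. For the rule of size, the share of all genes was counted in the reported setting only (5.13%). Its counts under the other settings therefore have no background to be read against. The NAC median lay between -0.06 and 0.04 over the single arrays. No NAC gene that passed changed sign under the alternatives run. ANAC036, ANAC019, NARS2, NAP and ANAC090 lost their calls under median centring only. No paired analysis was possible beyond the ratio itself, because each value already pairs both genotypes on 1 array and the arrays form 1 group. Faint genes are limited by their signal over background, and their folds are understated with an offset of 50.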

Other observations

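Besides the 100 loci that the description matched, 3 loci on the array are NAC genes by the TAIR10.1 name table, and 2 of them were tested. CUC1 (AT3G15170), the third organ boundary gene, had array log2 ratios of 0.07 and -0.02, and ANAC075 (AT4G29230), a factor of vascular differentiation, had -0.33 and -0.23. Neither passed the test in limma, and neither had an unadjusted p under 0.05.

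Among neighbouring NAC genes that were both tested, NARS2 and ANAC019 both rose. ANAC050 and ANAC052 had means of -0.15 and -0.06, and NTL4, next to them, 0.38. ANAC016 had 0.05 and its neighbour ANAC017 0.22.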
